A study of Homo sapiens with 36 samples.

Results

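The genes described here are the AP-1 and EGR immediate early genes: FOS, FOSB, FOSL1, JUN, JUNB, JUND, EGR1, EGR2, EGR3 and IER2. They were chosen by symbol, and each symbol was matched to 1 Ensembl identifier, which gave 10 members of the 74628 genes in the count table. RNA came from Jurkat, a line grown from a human T cell leukaemia, here with stable dCas9-VP64 and, per the labels, mCherry. The dCas9-VP64 protein is a Cas9 that cannot cut DNA, joined to a transcriptional activator, and a guide RNA places it at a promoter (CRISPR activation). All groups shared this background, a lentiviral pXPR guide vector and selection in puromycin for 3 days. The sgRELA groups carried a guide that targets RELA, and the sgControl groups a guide that the labels call non-targeting. Cells were harvested 5, 6 or 7 days after transduction, which gave 6 groups with 3 transductions each and 2 RamDA-seq libraries per RNA sample. Both sgRELA and sgControl appear to be single guide sequences, going by the labels, the line was not compared with untransduced cells here, and day of harvest and any batch of handling by day cannot be told apart.

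Immediate early genes are transcribed within minutes of a stimulus, without new protein synthesis, and their RNAs are short-lived. FOS, FOSB and FOSL1 encode Fos proteins that pair with the Jun proteins encoded by JUN, JUNB and JUND to form AP-1, a basic leucine zipper factor that acts with NFAT and NF-kB on cytokine genes in T cells. EGR1, EGR2 and EGR3 encode zinc finger factors that are induced by signalling from the T cell receptor, and IER2 is another gene of the early response. MAP kinase signalling reaches many of them through the serum response factor SRF, which binds the CArG box, and through CREB and ATF factors, which bind the cyclic AMP response element (CRE).

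The promoter stretches below belong to the members on which the results turn: FOS and FOSB, which were higher in sgRELA on day 6, EGR1, which had the highest level per length, and JUN, which fell after day 5. They are RefSeq sequences on GRCh38.p14 in the direction of transcription, 5′ to 3′. The stretches of FOS, FOSB and EGR1 are the parts of the 250 bases before the RefSeq start that lie outside exons of GENCODE v29. Capitals mark CArG boxes and matches to the CRE core TGACG or, on the other strand, CGTCA. The JUN stretch is 30 bases long, lies inside the JUN exon of GENCODE v29, and its capitals mark TGACATCA, a variant of the CRE that was looked for after the window had been seen.
FOS, chr14:75278578-75278773, plus strand: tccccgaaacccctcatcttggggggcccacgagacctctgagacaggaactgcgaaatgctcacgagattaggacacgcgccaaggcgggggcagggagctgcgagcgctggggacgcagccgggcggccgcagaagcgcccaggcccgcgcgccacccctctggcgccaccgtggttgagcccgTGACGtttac
FOSB, chr19:45467746-45467994, plus strand: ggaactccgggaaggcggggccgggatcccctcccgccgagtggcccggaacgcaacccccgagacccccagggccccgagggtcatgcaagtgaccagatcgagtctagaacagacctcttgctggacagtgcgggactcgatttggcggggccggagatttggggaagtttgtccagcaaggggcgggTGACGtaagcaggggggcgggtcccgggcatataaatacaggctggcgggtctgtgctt
EGR1, chr5:138465229-138465478, plus strand: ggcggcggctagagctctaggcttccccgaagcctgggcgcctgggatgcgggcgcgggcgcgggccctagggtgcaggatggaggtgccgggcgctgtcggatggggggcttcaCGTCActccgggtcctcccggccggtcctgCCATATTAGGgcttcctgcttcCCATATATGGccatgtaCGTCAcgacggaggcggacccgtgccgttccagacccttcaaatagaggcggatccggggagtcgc
JUN, chr1:58784096-58784125, minus strand: aggccttggggTGACATCAtgggctatttt

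Promoter windows of 8 of the 10 members were used. No entry was found for FOSL1, and entries on chromosome 8, where EGR3 lies, were left out before the search. Motifs were searched on both strands in the 250 bases before each start. The CRE core occurred in at least 1 window of each of these 8 members, against 21.2% of all 35116 windows. It lay 64 to 60 bases before the start in FOS and 60 to 56 bases before it in FOSB. The CArG box was present 2 times in the EGR1 window and 1 time in 1 of the 3 EGR2 windows, against 1.16% of all windows. The full CRE, TGACGTCA, which contains the core on both strands, was found in JUND only among these members and in 1.65% of all windows. TGACATCA was found in JUN and in 2.37% of all windows. The EGR site GCGNGGGCG was found in EGR1 and in 8.41% of all windows. The AP-1 site TGANTCA (6.57% of all windows) and the kB motif bound by NF-kB (5.21%) had no match in the windows of these 8 members. A match describes the letters in a window and is not a measured binding site. Bases farther from the start were not searched, so a motif absent from a window may lie beyond it.

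Library totals ranged from 7586205 to 16124473 counts, and the 18 RNA samples, each the sum of its 2 libraries, from 18769530 to 29503934. Levels are given as CPM, counts relative to the library size after TMM scaling, as mean ± SD over the 3 RNA samples of a group. Differences are log2 fold changes ± SE from edgeR's quasi-likelihood test, called at a Benjamini-Hochberg adjusted p under 0.05 over all 27553 genes tested, among them all 10 members. RELA, the targeted gene, had 20.2 to 39.3 CPM in the sgControl samples and 119.8 to 318.5 CPM in the sgRELA samples. Its means on days 5, 6 and 7 were 293.7, 201.1 and 127.2 CPM in sgRELA and 33.3, 24.0 and 24.7 CPM in sgControl. The log2 fold change of RELA between the guides was 3.14 ± 0.14, 3.07 ± 0.14 and 2.36 ± 0.14 on these days. Library 1 of sgControl day 6 replicate 1 had the lowest total and 26526 detected genes, and stood apart for EGR1 and EGR3. It held 46.6 CPM of RELA against 21.1 in the other library of the same RNA. Fewer genes, 25398, were detected only in library 1 of sgControl day 5 replicate 2. These are the 2 libraries with few detected genes that were left out in 1 alternative. The library next in order, library 2 of sgControl day 7 replicate 2, had 26605 detected genes and was kept. All 11 T lymphocyte markers reached 1 CPM in each group, with summed levels of 2145 to 2509 CPM in sgControl day 5 and 3104 to 3155 CPM in sgRELA day 7, the groups with the lowest and highest sums. Of 4 B cell markers only CD79A reached 1 CPM, and their sum was 16.5 to 26.2 CPM in sgControl and 48.4 to 62.7 CPM in sgRELA. Of 3 fibroblast markers only COL1A1 reached 1 CPM, with sums of 1.95 to 10.4 CPM. Of 4 myeloid markers 2 reached 1 CPM in any sample, and of 4 epithelial markers 1, with sums of at most 2.84 and 1.69 CPM, and none of 3 erythroid markers did. EPCAM, COL1A2, HBA1 and HBB had no count in any library. The part of CD79A in the guide differences and of the T lymphocyte sum in the day differences was not tested.

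Levels were first compared between genes per kilobase of annotated exon, as medians over the 18 RNA samples. EGR1 had the highest, 17.3 CPM per kb, followed by IER2 with 7.18 and FOS with 2.60. JUNB had 1.76 and JUN 1.53 CPM per kb, and their ranges over samples, 0.633 to 3.30 and 0.607 to 7.54, overlapped. EGR3 (0.724), JUND (0.717) and FOSB (0.713) were next to each other with overlapping ranges, and EGR2 (0.417) and FOSL1 (0.362 CPM per kb) were lowest. In counts, EGR1 was measured from 349 to 1788 counts per RNA sample and IER2 from 275 to 718, whereas FOSL1 rested on 4 to 58 counts, EGR2 on 9 to 90 and JUND on 16 to 69.

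**Figure D1:**
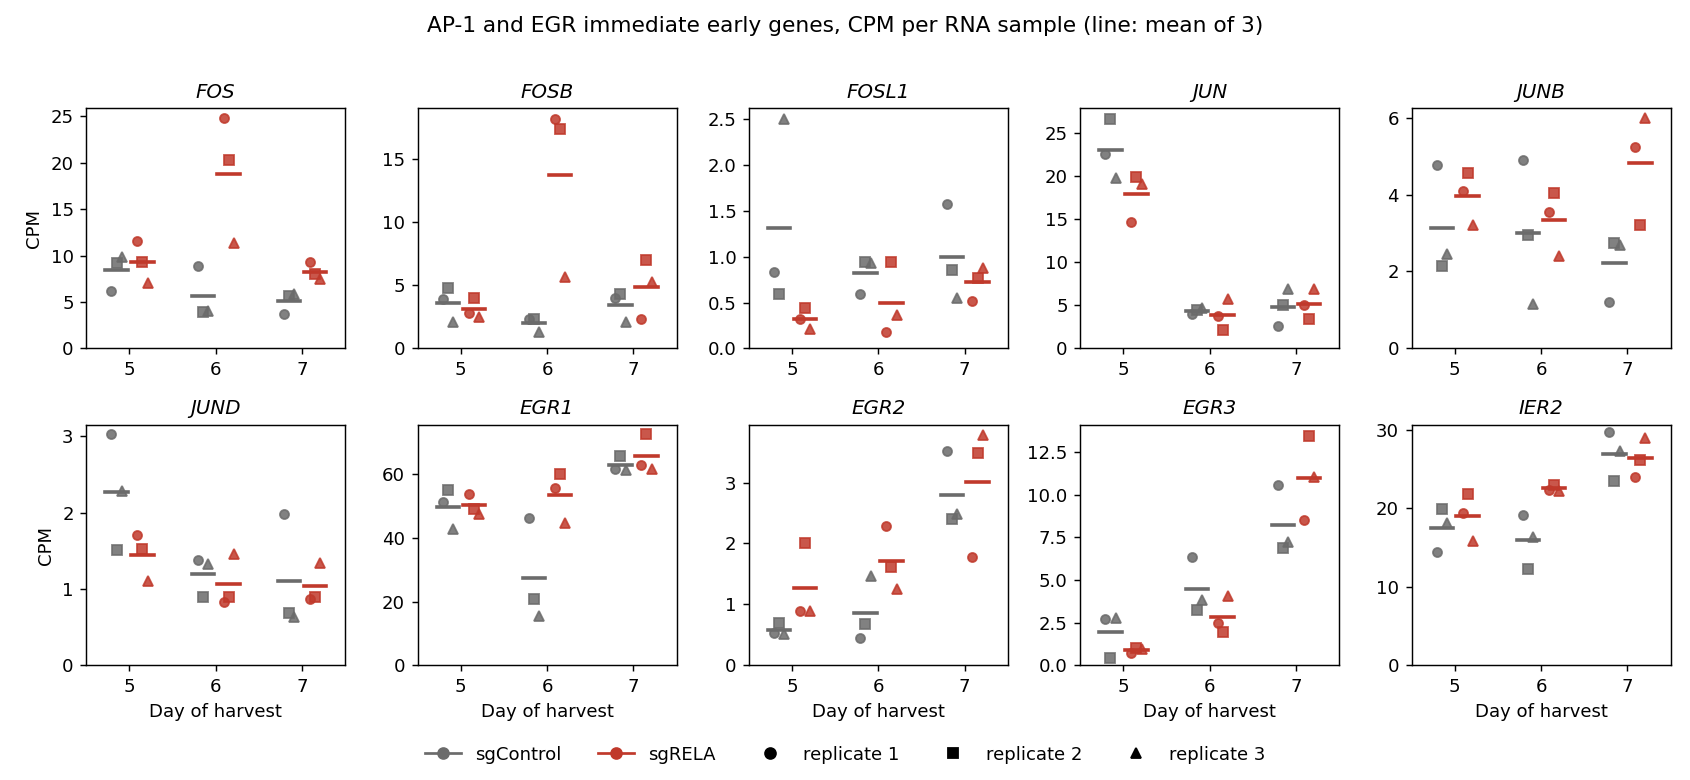
Level of each of the 10 genes in each RNA sample, in CPM (vertical axis, linear, from 0) by day of harvest (horizontal axis), with sgControl in grey and sgRELA in red; marker shapes are replicate numbers and lines are means of 3. FOS and FOSB of sgRELA peak on day 6 at 18.8 and 13.7 CPM, JUN is highest on day 5, and EGR3 is highest on day 7.

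The guides were compared on each day to ask which genes differed when RELA was activated. On day 6, FOS and FOSB were higher in sgRELA and none of the other 8 members was called. FOS, the founding Fos gene (chr14:75278774-75282230, plus strand), had 8.88, 3.89 and 4.08 CPM in sgControl replicates 1, 2 and 3, and 24.8, 20.3 and 11.3 CPM in sgRELA. All sgRELA values exceeded all sgControl values. On the log2 scale the groups differed by 1.75 ± 0.32, a 3.36-fold difference with an adjusted p of 0.00629 by edgeR. In bulk RNA, more RNA per cell and more cells that express a gene cannot be told apart.

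FOSB, a Fos gene with the same partners (chr19:45467995-45475179, plus strand), had 2.35, 2.32 and 1.33 CPM in sgControl on day 6 and 18.2, 17.4 and 5.64 CPM in sgRELA. The groups did not overlap, and sgRELA replicate 3 was the lowest of its group for both genes. FOSB differed by 2.78 ± 0.46 on the log2 scale, which is 6.86-fold (adjusted p = 0.00129, edgeR). FOSB lies within ERCC1, a DNA repair gene on the opposite strand, and the strand setting of the counts is not given in the sources used here. On day 6, ERCC1 stood at 32.2 ± 4.51 CPM for sgControl against 28.5 ± 3.85 CPM for sgRELA, a log2 fold change of -0.18 ± 0.16 (adjusted p = 0.972, edgeR).

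The 2 calls of 10 members compare with 0.152% of all genes called higher and 0.0617% called lower on day 6. The median log2 fold change was 0.33 over the members and 0.00 over all genes tested. The call of FOSB remained after leaving out any 1 RNA sample, with log2 fold changes of 2.31 to 3.42 over all alternatives, and was lost with the first library of each RNA alone (adjusted p = 0.393, edgeR). The call of FOS was lost with the first library alone (adjusted p = 0.691) and without sgControl replicate 2, sgControl replicate 3 or sgRELA replicate 1 of day 6, where adjusted p was 0.0573, 0.0769 and 0.0884 (edgeR). With the second library alone both calls were kept, with adjusted p of 0.0241 for FOS and 0.00472 for FOSB (edgeR).

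EGR1, the most abundant member (chr5:138465490-138469315, plus strand), had 46.4, 20.7 and 15.5 CPM in sgControl on day 6 and 55.7, 60.2 and 44.7 CPM in sgRELA. The groups overlapped through sgControl replicate 1. The log2 fold change of 0.96 ± 0.22 missed the threshold with an adjusted p of 0.059 (edgeR). The 2 libraries of sgControl replicate 1 held 72.4 and 30.1 CPM, while the other 4 sgControl libraries of that day held 13.3 to 24.98 CPM and the 6 sgRELA libraries 41.3 to 64.9 CPM. Without that RNA sample the log2 fold change was 1.58 (adjusted p = 1.04e-07), and without the 2 libraries with few detected genes it was 1.31 (adjusted p = 8.96e-06, edgeR). EGR1 was also called with the second library alone (1.183, adjusted p = 0.00016), without a filter (0.97, adjusted p = 7.83e-10) and without sgRELA replicate 3 (1.08, adjusted p = 0.0416, edgeR), whereas the first library alone gave 0.67 (adjusted p = 0.849, edgeR). DESeq2 did not call it (0.96, adjusted p = 0.184). Nor was it called without sgControl replicate 2 or 3 (adjusted p = 0.223 and 0.31, edgeR). The same held without sgRELA replicate 1 or 2 (adjusted p = 0.193 and 0.305, edgeR). Of 13 alternatives, 6 called EGR1, and its log2 fold change ran from 0.67 to 1.58.

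IER2, which encodes a nuclear protein of the early response (chr19:13150415-13154908, plus strand), had 19.1, 12.3 and 16.4 CPM in sgControl and 22.3, 23.0 and 22.3 CPM in sgRELA on day 6. The groups did not overlap, and the log2 fold change of 0.50 ± 0.19 had an adjusted p of 0.595 (edgeR). For EGR3 the sgControl values were 6.37, 3.22 and 3.81 CPM and the sgRELA values 2.46, 1.97 and 4.08 CPM, with a log2 fold change of -0.66 ± 0.44 (adjusted p = 0.925, edgeR). Library 1 of sgControl replicate 1 held 13.1 CPM of EGR3 against 1.90 in library 2, and without the 2 libraries with few detected genes the log2 fold change was -0.08.

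**Figure D2:**
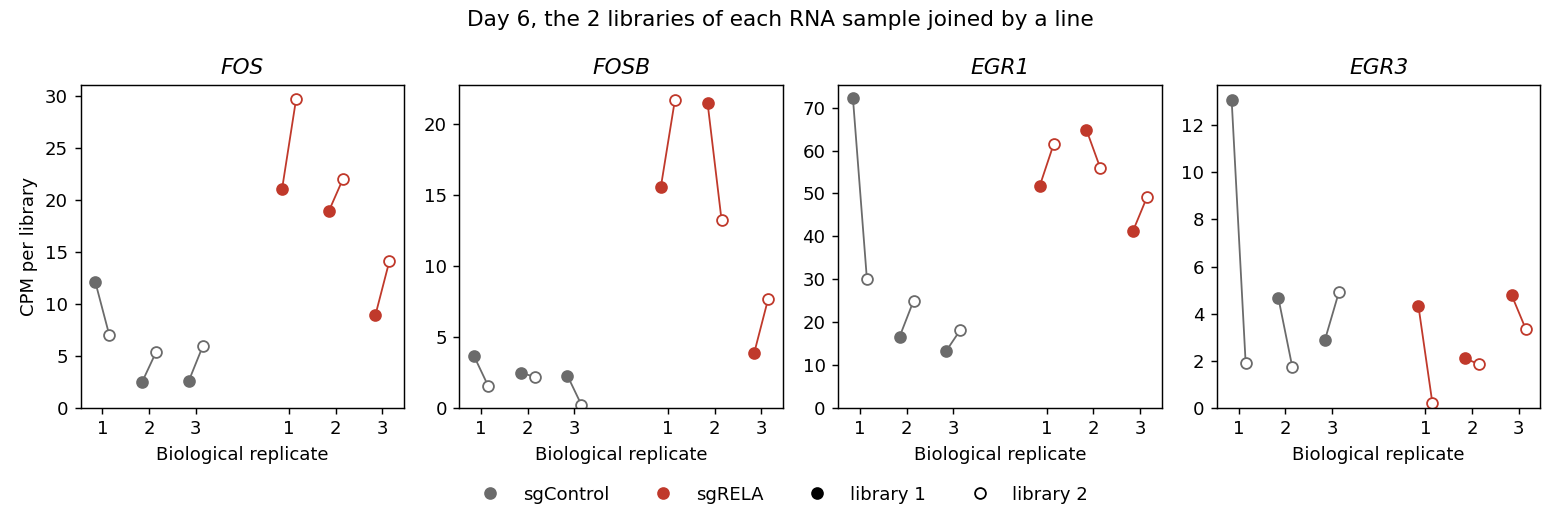
Day 6 levels of FOS, FOSB, EGR1 and EGR3 in single libraries, in CPM (vertical axis, linear, from 0), by biological replicate (horizontal axis), with sgControl in grey and sgRELA in red; filled points are library 1, open points library 2, and a line joins the libraries of one RNA. The EGR1 value of 72.4 CPM and the EGR3 value of 13.1 CPM in sgControl replicate 1 both come from library 1, and its library 2 lies at 30.1 and 1.90 CPM.

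On day 5 no member was called between the guides by edgeR, against 0.102% of all genes called higher and 0.0363% called lower. At an unadjusted p under 0.05 were 2 of 10 members, against 1641 of all 27553 genes tested (edgeR). DESeq2 called 0 members. FOS had 6.18, 9.23 and 9.80 CPM in sgControl and 11.5, 9.28 and 7.05 CPM in sgRELA, so the groups overlapped (log2 fold change 0.14 ± 0.31). FOSB had 3.95, 4.75 and 2.07 CPM in sgControl and 2.84, 3.999 and 2.48 CPM in sgRELA (log2 fold change -0.21 ± 0.43). These are the same genes whose groups were apart on day 6. EGR1 levels were close, at 49.6 ± 6.32 CPM for sgControl against 50.2 ± 3.21 CPM for sgRELA (SD, n = 3), with a log2 fold change of 0.02 ± 0.22. The 2 members with an unadjusted p under 0.05 were EGR3 and FOSL1, both lower in sgRELA in these samples, with adjusted p of 0.755 and 0.751 (edgeR).

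On day 7, again, no member was called by edgeR, against 0.0653% called higher and 0.0254% called lower among all genes. At an unadjusted p under 0.05 were 2 of 10 members, against 1290 of all 27553 genes tested (edgeR). DESeq2 called 0 members. FOS had 3.73, 5.69 and 5.84 CPM in sgControl and 9.30, 7.96 and 7.51 CPM in sgRELA. The groups did not overlap, and the log2 fold change of 0.70 ± 0.32 had an unadjusted p of 0.0366 and an adjusted p of 1 (edgeR). FOSB had 3.98, 4.32 and 2.05 CPM in sgControl and 2.33, 6.99 and 5.29 CPM in sgRELA, with a log2 fold change of 0.50 ± 0.43. JUNB was the other gene under an unadjusted p of 0.05, with a log2 fold change of 1.12 ± 0.46 (adjusted p = 1, edgeR).

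**Figure D3:**
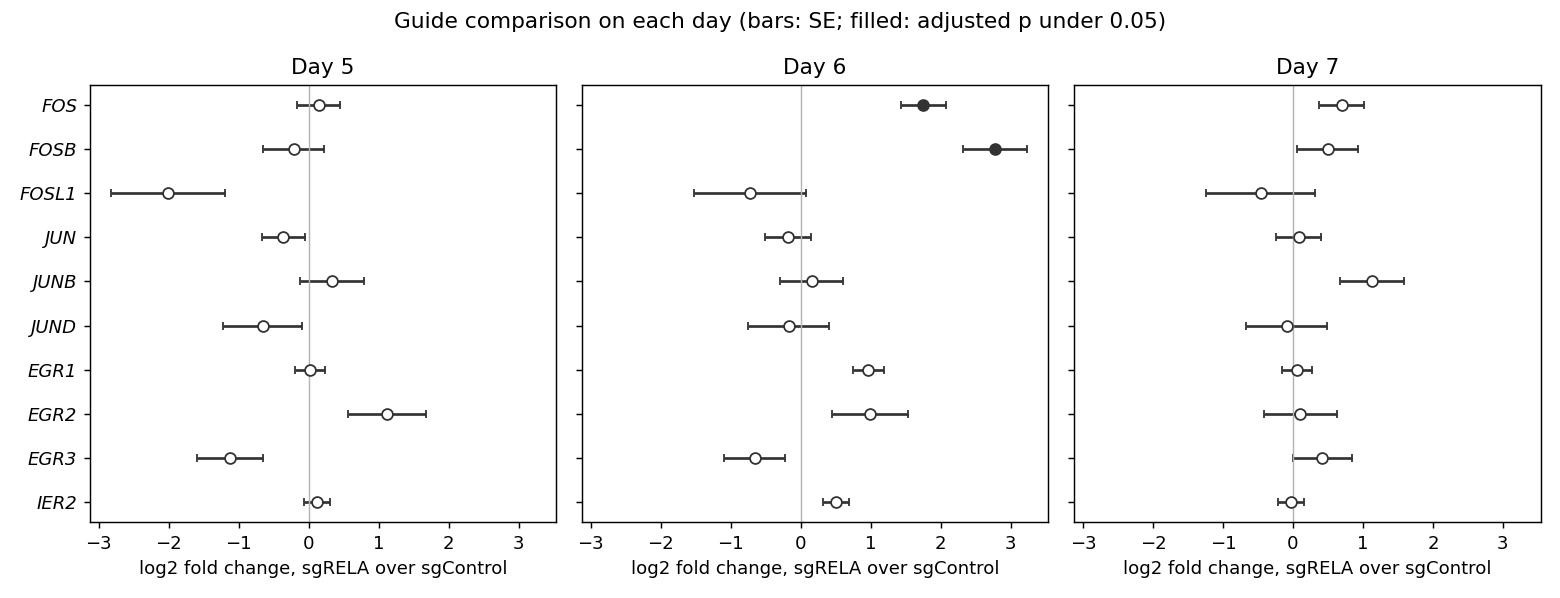
Log2 fold change of sgRELA over sgControl (horizontal axis) for each of the 10 genes (rows) on days 5, 6 and 7 (panels); bars are SE and filled points have an adjusted p under 0.05. The 2 filled points are FOS at 1.75 and FOSB at 2.78 on day 6, and EGR1 at 0.96 on that day is open.

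Averaged over the 3 days, FOS was the 1 member called, against 0.265% of all genes called higher and 0.123% called lower. Its mean log2 fold change was 0.86 ± 0.18 (adjusted p = 0.0203, edgeR), and its call was lost in 5 of the 18 fits that left out 1 RNA sample, with adjusted p of 0.0505 to 0.0753. These left out replicate 1 of sgControl day 5, sgControl day 7, sgRELA day 5 or sgRELA day 6, or replicate 2 of sgRELA day 6. The call of FOS was also lost with either library set alone, at 0.76 with the first (adjusted p = 0.649) and 0.91 with the second (adjusted p = 0.0645, edgeR). FOSB had a mean of 1.02 ± 0.25 (adjusted p = 0.0735), and EGR1 a mean of 0.35 ± 0.13 (adjusted p = 0.446, edgeR). At an unadjusted p under 0.05 were 6 of 10 members, against 1971 of all 27553 genes tested (edgeR). Besides FOS, FOSB and EGR1 these were EGR2 (0.74 ± 0.31), JUNB (0.54 ± 0.26) and FOSL1 (-1.06 ± 0.46). Their adjusted p was 0.594, 0.698 and 0.61 (edgeR).

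Whether the guide difference itself varied between days was tested as an interaction. No member was called, with 3 of 10 at an unadjusted p under 0.05 and 1, FOSB, called by DESeq2. Among all genes 0.00363% (1 gene) was called by edgeR, and 1291 of 27553 had an unadjusted p under 0.05. The unadjusted p was 0.000119 for FOSB, 0.00407 for FOS and 0.00641 for EGR1, and the adjusted p was 0.431, 1 and 1. A difference between the days in the response of FOS and FOSB to the guide was thus not called over all genes by edgeR, and the same holds for a difference between the guides in their course over days. EGR1 was called in this test, as the 1 member, without sgControl day 6 replicate 1, and also without the 2 libraries with few detected genes.

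The days were then compared within each guide, to ask how these genes moved over the course after transduction. JUN, the founding Jun gene (chr1:58780788-58784327, minus strand), fell after day 5 in both guides. In sgControl it had 22.6, 26.7 and 19.8 CPM on day 5, 4.02, 4.47 and 4.70 CPM on day 6 and 2.61, 5.05 and 6.91 CPM on day 7. In sgRELA it had 14.7, 19.95 and 19.1 CPM on day 5, 3.77, 2.15 and 5.75 CPM on day 6 and 5.05, 3.41 and 6.96 CPM on day 7. Every day 5 value exceeded every later value in both guides.

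Against day 5, the log2 fold change of JUN was -2.39 ± 0.33 on day 6 and -2.24 ± 0.33 on day 7 in sgControl (adjusted p = 1.05e-05 and 1.02e-05, edgeR). In sgRELA it was -2.21 ± 0.33 and -1.80 ± 0.32 (adjusted p = 3.82e-05 and 0.000187, edgeR). From day 6 to day 7 it was 0.14 ± 0.33 in sgControl and 0.41 ± 0.33 in sgRELA, neither called. The 4 calls against day 5 were kept in every alternative, with log2 fold changes of -2.72 to -1.52. JUN was not called between the guides on any day, with log2 fold changes of -0.36 ± 0.31, -0.18 ± 0.33 and 0.08 ± 0.32 on days 5, 6 and 7, and its interaction p was 0.613.

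EGR3, which encodes an EGR factor that restrains T cell activation together with EGR2 (chr8:22687659-22693302, minus strand), was highest on day 7 in both guides. In sgControl it had 2.72, 0.411 and 2.76 CPM on day 5 and 10.6, 6.89 and 7.22 CPM on day 7. In sgRELA it had 0.730, 1.00 and 0.963 CPM on day 5 and 8.51, 13.4 and 11.1 CPM on day 7. The days did not overlap within either guide.

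The log2 fold change of EGR3 from day 5 to day 7 was 2.06 ± 0.45 in sgControl (adjusted p = 0.00167) and 3.61 ± 0.48 in sgRELA (adjusted p = 2.81e-06, edgeR), which are 4.17-fold and 12.2-fold. The difference between these was not called, with an interaction p of 0.0515 over all 3 days. The sgRELA call was kept in every alternative, with 3.25 to 4.15. The sgControl call was lost with the first library alone (adjusted p = 0.466, edgeR), and its log2 fold change ran from 1.20 to 3.10. From day 6 to day 7 EGR3 rose by 1.96 ± 0.44 in sgRELA (adjusted p = 0.00217), and in sgControl the value was 0.88 ± 0.43 (adjusted p = 0.193, edgeR). Without the 2 libraries with few detected genes the sgControl value was 1.48 (adjusted p = 0.0118, edgeR). From day 5 to day 6 it rose by 1.65 ± 0.47 in sgRELA (adjusted p = 0.0275, edgeR), a call that was lost without any 1 of the day 5 replicates or without day 6 replicate 3 (adjusted p = 0.0633 to 0.162), and with the first or the second library alone (adjusted p = 0.426 and 0.325, edgeR).

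EGR2 (chr10:62811996-62919900, minus strand) was a low gene that rose in sgControl. It had 0.526, 0.686 and 0.518 CPM on day 5, 0.441, 0.670 and 1.46 CPM on day 6 and 3.52, 2.40 and 2.49 CPM on day 7. All day 7 values of sgControl exceeded those of the other days. The log2 fold change was 2.27 ± 0.56 from day 5 to day 7 (adjusted p = 0.00561) and 1.70 ± 0.55 from day 6 to day 7 (adjusted p = 0.0328, edgeR). In sgRELA, EGR2 had 0.892, 2.00 and 0.894 CPM on day 5 and 1.77, 3.49 and 3.78 CPM on day 7, which overlapped, and the log2 fold change of 1.25 ± 0.53 had an adjusted p of 0.134 (edgeR). The interaction p was 0.348. The call from day 5 to day 7 was lost with either library set alone, at 3.59 with the first and 1.05 with the second, and the call from day 6 to day 7 was lost when any 1 of the RNA samples other than day 6 replicate 3 was left out (adjusted p = 0.053 to 0.138, edgeR). With the first or the second library alone the latter had an adjusted p of 0.127 and 0.799 (edgeR).

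EGR1 differed between the days of sgControl through its low values on day 6. It had 51.2, 55.0 and 42.7 CPM on day 5 and 61.6, 65.7 and 61.5 CPM on day 7, around the day 6 values of 46.4, 20.7 and 15.5 CPM. Its log2 fold change was -0.85 ± 0.22 from day 5 to day 6 (adjusted p = 0.0112) and 1.20 ± 0.22 from day 6 to day 7 (adjusted p = 0.000173, edgeR). Days 5 and 6 overlapped through replicate 1, the RNA sample of the library that stood apart. Without the 2 libraries with few detected genes these changes were -1.15 (adjusted p = 8.61e-06) and 1.57 (adjusted p = 8.98e-09, edgeR). The fall to day 6 was no longer called without sgControl day 6 replicate 2 (-0.69, adjusted p = 0.061) or replicate 3 (-0.57, adjusted p = 0.0759, edgeR).

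In sgRELA no day comparison of EGR1 was called. Its levels were 50.2 ± 3.21 CPM on day 5, 53.6 ± 7.97 CPM on day 6 and 65.7 ± 5.98 CPM on day 7 (SD, n = 3 each). The log2 fold change was 0.09 ± 0.22 from day 5 to day 6 and 0.39 ± 0.22 from day 5 to day 7 (adjusted p = 0.286, edgeR).

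IER2 rose in sgControl to 29.7, 23.5 and 27.4 CPM on day 7, from 14.4, 19.9 and 18.1 CPM on day 5 and 19.1, 12.3 and 16.4 CPM on day 6. Day 7 lay above both other days in every sample. It rose by 0.62 ± 0.18 from day 5 (adjusted p = 0.0213) and by 0.76 ± 0.18 from day 6 (adjusted p = 0.00393, edgeR). In sgRELA, IER2 had 19.0 ± 2.99, 22.5 ± 0.408 and 26.4 ± 2.54 CPM on days 5, 6 and 7, and no comparison was called (0.47 ± 0.18 from day 5 to day 7, adjusted p = 0.0933, edgeR). The call from day 5 to day 7 in sgControl was lost without day 5 replicate 1, day 7 replicate 1 or day 7 replicate 3 (adjusted p = 0.0642 to 0.124), and with the first or the second library alone (adjusted p = 0.177 and 0.142, edgeR).

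FOS and FOSB changed between days in sgRELA, where day 6 was the high day. FOSB rose by 2.15 ± 0.44 from day 5 to day 6 (adjusted p = 0.00174) and fell by 1.497 ± 0.43 from day 6 to day 7 on the log2 scale (adjusted p = 0.0177, edgeR). FOS rose by 1.02 ± 0.31 (adjusted p = 0.0426) and fell by 1.19 ± 0.31 (adjusted p = 0.00941, edgeR) over the same steps. The FOS values of days 5 and 6 overlapped, since day 6 replicate 3 (11.3 CPM) lay below day 5 replicate 1 (11.5 CPM), and the FOSB values of days 6 and 7 overlapped through the same replicate 3. The rise of FOSB was kept after leaving out any 1 RNA sample. The rise of FOS was lost without replicate 2 or 3 of day 5 or replicate 1 or 2 of day 6 (adjusted p = 0.115 to 0.259), and the fall of FOSB without replicate 1 or 2 of day 6 or replicate 1 of day 7 (adjusted p = 0.1 to 0.124). The fall of FOSB was also lost with the first or the second library alone (adjusted p = 0.237 and 0.0623, edgeR). The fall of FOS was lost without sgRELA day 6 replicate 1 (-0.94, adjusted p = 0.0951, edgeR).

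In sgControl neither gene was called between days. FOS had a log2 fold change of -0.59 ± 0.32 from day 5 to day 6 and -0.72 ± 0.32 from day 5 to day 7 (adjusted p = 0.307 and 0.15, edgeR), and FOSB of -0.84 ± 0.45 and -0.06 ± 0.43 (adjusted p = 0.289 and 0.962, edgeR). Without sgControl day 6 replicate 1, the first FOS value was -1.09 and was called (adjusted p = 0.0467, edgeR). The guide comparison on day 6 and these day comparisons share samples, so they are not independent of each other.

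**Figure D4:**
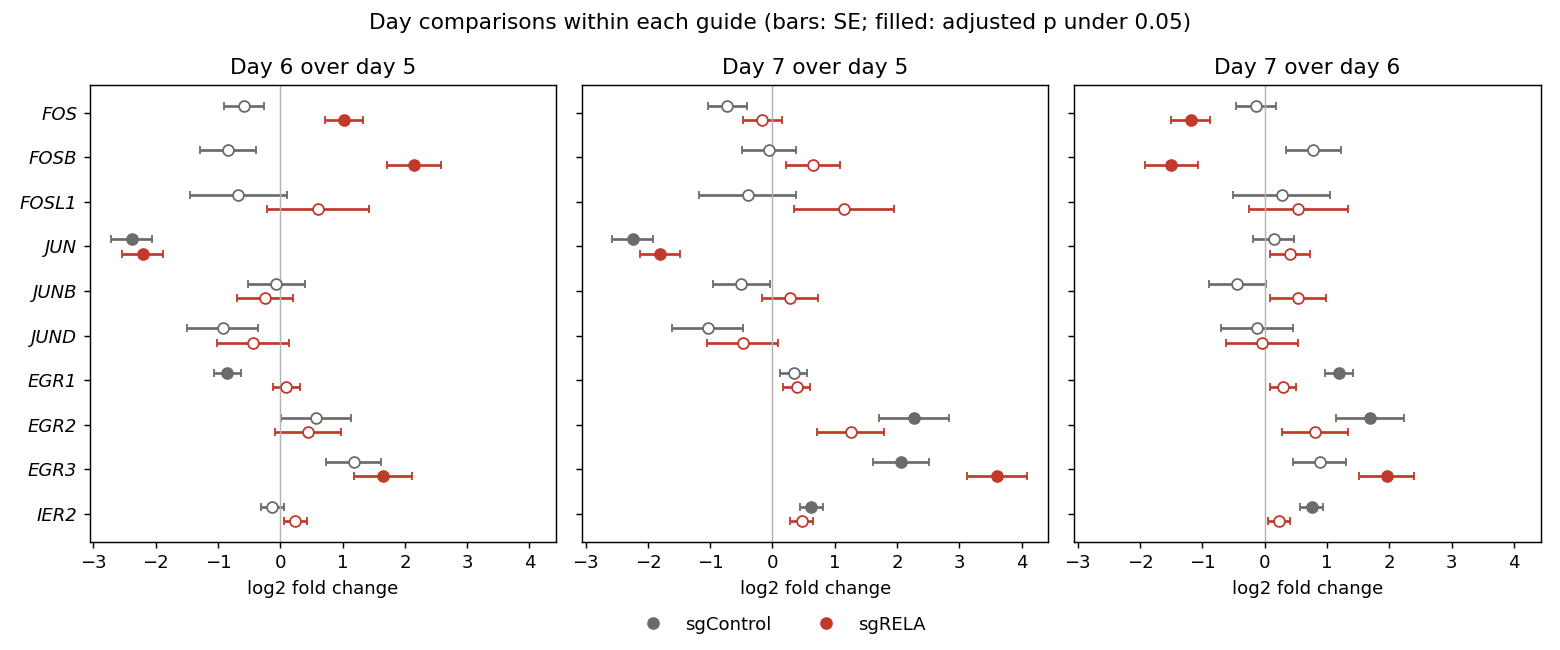
Log2 fold change between days (horizontal axis) for each of the 10 genes (rows), with sgControl in grey and sgRELA in red and 1 panel per pair of days; bars are SE and filled points have an adjusted p under 0.05. JUN is filled in both guides against day 5, EGR3 reaches 3.61 in sgRELA from day 5 to day 7, and FOS and FOSB are filled in sgRELA, up to day 6 and down to day 7.

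As counts in sgControl, 0 members rose and 2 fell from day 5 to day 6, where 3.29% of all genes were called higher and 5.58% lower. From day 5 to day 7, 3 rose and 1 fell, against 6.65% and 6.36% of all genes. From day 6 to day 7, 3 rose and 0 fell, against 8.25% and 6.31%. In sgRELA, 3 rose and 1 fell from day 5 to day 6, against 2.57% of all genes called higher and 4.34% lower. From day 5 to day 7, 1 rose and 1 fell, against 6.35% and 6.06%, and from day 6 to day 7, 1 rose and 2 fell, against 7.21% and 5.02%. The median log2 fold change of the members was -0.63, -0.23 and 0.52 in sgControl and 0.34, 0.43 and 0.35 in sgRELA, in this order, while the median of all genes lay between -0.07 and 0.04. With the first library of each RNA alone, the day calls that were kept were those of JUN and of EGR3 from day 5 to day 7 in sgRELA.

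JUNB, JUND and FOSL1 were not called in any comparison. JUNB, a Jun protein that often opposes JUN (chr19:12791496-12793315, plus strand), ranged from 1.15 to 4.90 CPM in sgControl and from 2.40 to 6.00 CPM in sgRELA. Its day 7 values were 1.20, 2.74 and 2.68 CPM in sgControl and 5.24, 3.21 and 6.00 CPM in sgRELA, which did not overlap. JUNB lies within HOOK2 on the opposite strand, whose log2 fold change on day 7 was 0.17 ± 0.21 (adjusted p = 1, edgeR). EGR3 and IER2 also overlap transcripts on the opposite strand in GENCODE v29. JUND, the Jun gene that is usually expressed without a stimulus (chr19:18279760-18281622, minus strand), had 2.27 ± 0.759 CPM in sgControl on day 5 and 1.03 to 1.44 CPM as the mean of each other group.

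FOSL1, which encodes the Fos protein FRA-1, lies on chromosome 11 at 65892049-65900573 on the minus strand, 229 kb from RELA, the gene that the guide targets. It had 0.833, 0.594 and 2.50 CPM in sgControl on day 5 and 0.324, 0.440 and 0.206 CPM in sgRELA. The groups did not overlap, and the log2 fold change of -2.01 ± 0.82 had an adjusted p of 0.751 (edgeR). Library 1 of sgControl replicate 3 held 57 of the 58 FOSL1 counts of that RNA, and without that replicate the log2 fold change was -1.13 (adjusted p = 0.892, edgeR). On days 6 and 7 the values overlapped, with log2 fold changes of -0.72 ± 0.80 and -0.46 ± 0.78. The SE of the 3 guide comparisons was 0.78 to 0.82 log2 units at 4 to 58 counts per RNA sample.

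The other genes of the system were taken from lists chosen with earlier results of these data known. None of the 10 tested of 11 other basic leucine zipper partners and relatives was called between the guides on any day, and 0 by DESeq2. On days 5, 6 and 7, 0, 1 and 0 had an unadjusted p under 0.05, against 1641, 1672 and 1290 of all 27553 genes tested (edgeR). Between days, 3 of the 10 fell from day 5 to day 7 in each guide, ATF2, ATF3 and JDP2, and none rose, where 6.36% and 6.06% of all genes were called lower. ATF3, a stress-induced factor that pairs with JUN, went from 17.4 to 4.003 CPM in sgControl (log2 fold change -2.12 ± 0.32) and from 16.3 to 3.80 CPM in sgRELA (-2.10 ± 0.32; adjusted p = 2.02e-05 and 2.4e-05, edgeR). JDP2, which encodes a repressor of AP-1, went from 9.05 to 1.96 CPM (-2.21 ± 0.34) and from 10.7 to 2.60 CPM (-2.04 ± 0.33; adjusted p = 2.41e-05 and 5.68e-05, edgeR). ATF3 and JDP2 were therefore lower on day 7 together with JUN. In contrast with JUN, JDP2 was not called from day 5 to day 6 in either guide. From day 6 to day 7, 1 of the 10 rose and 2 fell in sgControl, against 8.25% and 6.31% of all genes. In sgRELA 1 rose and 1 fell over that step, against 7.21% and 5.02%. The gene that rose in sgControl was BATF3, by 0.81 ± 0.22 (adjusted p = 0.0102, edgeR).

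Of 33 other immediate early genes, 27 passed the filter on low counts. None was called between the guides on any day, and 0 by DESeq2. On days 5, 6 and 7, 1, 5 and 1 of the 27 had an unadjusted p under 0.05, against 1641, 1672 and 1290 of all 27553 genes tested (edgeR). The median log2 fold change of the list on day 6 was 0.27, against 0.00 for all genes. From day 5 to day 7, 3 rose and 4 fell in sgControl, where 6.65% of all genes were called higher and 6.36% lower. In sgRELA 2 rose and 3 fell, against 6.35% and 6.06%. PPP1R15A, a stress-induced phosphatase subunit, fell by 1.55 ± 0.17 in sgControl and by 1.70 ± 0.17 in sgRELA (adjusted p = 1.36e-07 and 2.82e-08, edgeR). KLF10, an early gene of TGF-beta signalling, rose by 1.41 ± 0.32 and 1.31 ± 0.32 (adjusted p = 0.00248 and 0.00467, edgeR).

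MYC, a growth regulator and early gene in T cells, followed the order of EGR1 in sgControl, with a dip on day 6. It had 59.1, 28.95 and 90.3 CPM as means of days 5, 6 and 7 in sgControl and 56.6, 36.4 and 93.5 CPM in sgRELA. The fall to day 6 was -1.03 ± 0.12 in sgControl and -0.64 ± 0.11 in sgRELA (adjusted p = 4.32e-07 and 0.000395, edgeR). From day 6 to day 7 it rose by 1.64 ± 0.12 and 1.36 ± 0.12 (adjusted p = 8.03e-12 and 3.17e-10, edgeR). MYC thus changed over these steps in both guides.

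**Figure D5:**
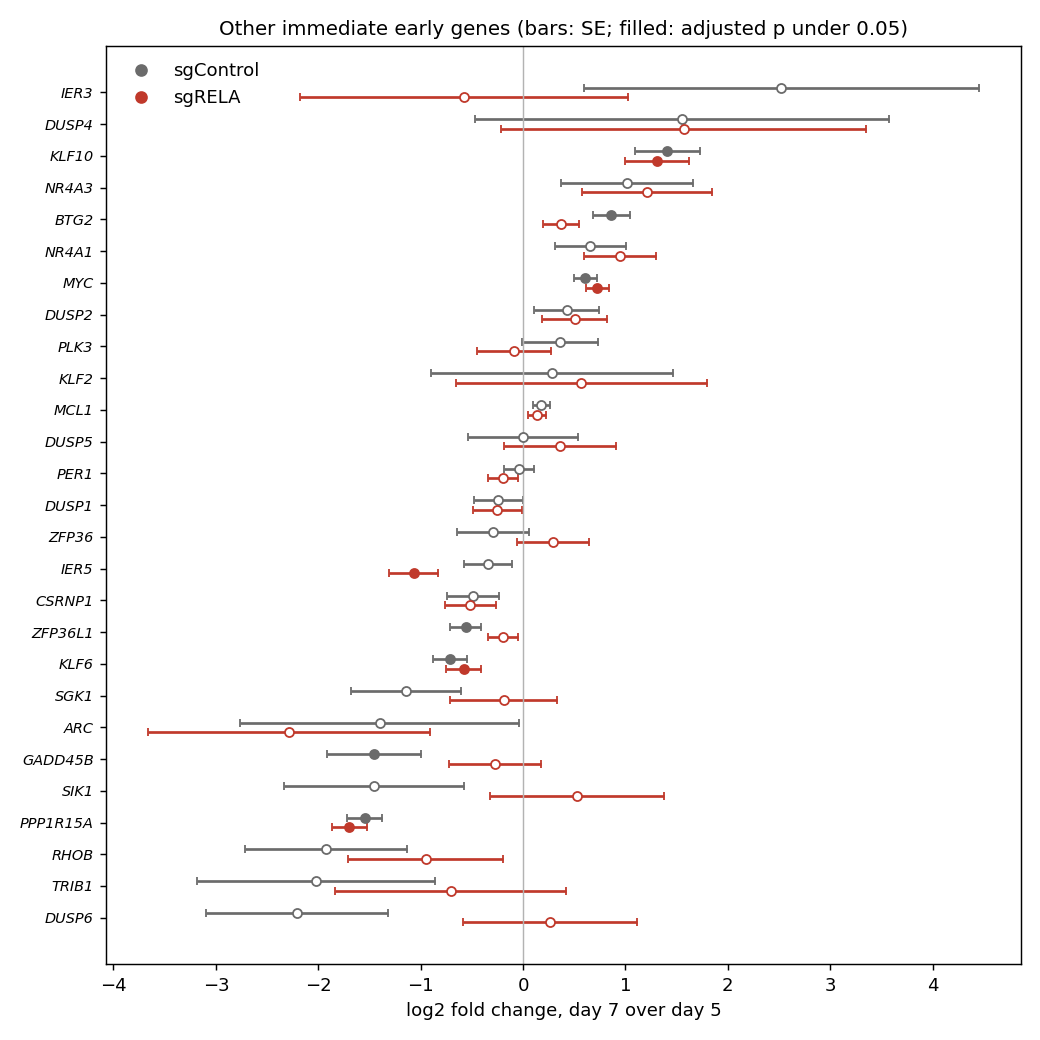
Log2 fold change from day 5 to day 7 (horizontal axis) for the 27 other immediate early genes that passed the filter (rows, ordered by the sgControl value), with sgControl in grey and sgRELA in red; bars are SE and filled points have an adjusted p under 0.05. PPP1R15A lies at -1.55 and -1.70 and KLF10 at 1.41 and 1.31, in sgControl and sgRELA.

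All 24 upstream factors and MAP kinases on the list passed the filter. On days 5, 6 and 7, 0, 2 and 0 had an unadjusted p under 0.05, against 1641, 1672 and 1290 of all 27553 genes tested (edgeR). None of the 24 was called between the guides on any day, and 0 by DESeq2. From day 5 to day 6, 3 fell in sgControl and 5 in sgRELA, and none rose in either. Among all genes, 5.58% and 4.34% were called lower and 3.29% and 2.57% higher. SRF, the CArG box factor, fell by 0.76 ± 0.11 in sgControl, from 144.6 to 85.7 CPM, and by 0.58 ± 0.10 in sgRELA, from 130.4 to 87.6 CPM (adjusted p = 1.11e-05 and 0.000473, edgeR). From day 6 to day 7, 5 rose and 1 fell in sgControl, against 8.25% and 6.31% of all genes, and 5 rose and 0 fell in sgRELA, against 7.21% and 5.02%. ELK4, an ETS factor that binds with SRF, rose by 0.38 ± 0.09 and 0.34 ± 0.09 over that step (adjusted p = 0.00306 and 0.00892, edgeR).

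Of 20 T cell activation genes, 11 passed the filter. Of these, 1 was called between the guides on days 5 and 6, against 0.102% and 0.152% of all genes called higher. That gene was TNFRSF9, the costimulatory receptor 4-1BB. It had no count in any sgControl sample of these days and means of 1.31 and 1.88 CPM in sgRELA (adjusted p = 0.0219 and 0.00788, edgeR). Among the samples of these days, only those of sgRELA could bring it past the filter on low counts. These calls, at low levels, are therefore given as a description. On day 7, edgeR called 0 of the 11 and DESeq2 called 1. An unadjusted p under 0.05 was found for 3, against 1290 of all 27553 genes tested (edgeR).

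From day 5 to day 7, 1 of the 11 activation genes rose and 1 fell in each guide. Among all genes, 6.65% were called higher and 6.36% lower in sgControl, and 6.35% and 6.06% in sgRELA. The list had a median log2 fold change of -0.10 in sgControl and -0.13 in sgRELA. The gene that fell was CBLB, a ubiquitin ligase that restrains T cell activation, with -0.47 ± 0.13 in sgControl and -0.55 ± 0.13 in sgRELA (adjusted p = 0.0122 and 0.00332, edgeR). In sgControl PDCD1, an inhibitory receptor, rose by 2.34 ± 0.64, from 0.354 to 1.81 CPM (adjusted p = 0.0116), and its value in sgRELA was 1.47 ± 0.60 (adjusted p = 0.118, edgeR). In sgRELA CD69, an early surface marker of activation, rose by 1.10 ± 0.31, from 5.11 to 10.95 CPM (adjusted p = 0.0145), and its value in sgControl was 0.52 ± 0.31 (adjusted p = 0.314, edgeR). The interaction of guide and day was not called for either gene (unadjusted p = 0.565 for PDCD1 and 0.415 for CD69, edgeR). From day 6 to day 7 none rose, CBLB fell in both guides and CD5, also on the list of T lymphocyte markers, fell in sgRELA by 0.38 ± 0.13 (adjusted p = 0.0475, edgeR). Over that step 8.25% of all genes were called higher and 6.31% lower in sgControl, and 7.21% and 5.02% in sgRELA.

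The genes whose levels ran most like those of FOS, JUN and EGR1 over the 18 RNA samples were looked up among the 15514 genes whose mean reached 50 counts, by Pearson's r of log2(CPM + 1), as a description, since the samples share days and guides. For JUN they were the identifier ENSG00000279762 (r = 0.934), DNAJB1 (0.933), which encodes a heat shock co-chaperone, and TAF1D (0.930). For EGR1 they were UQCR11 (0.852), SF3A2 (0.848) and IFIH1 (0.819). For FOS they were SETD1B (0.760), ABLIM1 (0.752) and the identifier ENSG00000272720 (0.745), all less alike than those of JUN.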

How the data were processed

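RNA of 18 samples (6 groups of guide and day, 3 biological replicates each) was measured by RamDA-seq in 36 libraries of paired-end reads. The authors deposited 1 table of raw read counts per gene, with no normalization. Per the submitters' processing notes, cutadapt 1.18, STAR 2.7.9a and GRCh38 were used; their roles, the counting tool, the annotation and the strand setting are not given in the sources used here, so overlapping and antisense genes are uncertain. Of the counts from 1 to 20, 64.21% were even, and no molecular identifiers are mentioned, so counts are not independent molecules.

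Counts were added over both libraries of each RNA sample. All 18 sums were fitted in 1 model of 6 group means with edgeR 4.0.16 in R 4.3.3 (TMM, filterByExpr with a minimum count of 10, quasi-likelihood F test with 12 residual degrees of freedom, Benjamini-Hochberg adjustment over 27553 genes), and SE were taken from the F statistic. The scripts were tested on simulated counts. Totals of 18769530 to 29503934 counts per sum set the precision. P-values measure the spread between the 3 transductions of a group, and whether the days of 1 number shared a culture is not given. Coordinates and exon lengths are those of GENCODE v29.

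Alternatives were DESeq2 1.42.0, its size factors in edgeR, no filter on low counts, each library set alone, leaving out 2 libraries with few detected genes, a replicate block, counts added over the 3 days, and leaving out each RNA sample in turn. The members, the gene lists and the tests were chosen with earlier results of these data known. All members are named; of each other list up to 4 called genes per comparison with the smallest p could be named, and the 3 genes most like FOS, JUN and EGR1. The same rule named TNFRSF9, CD69 and PDCD1.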

Additional observations from a re-analysis of the deposited data

Results flagged for a closer look

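Within each group of 6 libraries, a library was singled out where its gap to the nearest other library, divided by the range of the group, was above 0.625. Of 54 combinations of gene and group with a mean of at least 10 counts per library, 5 were singled out, and chance alone gives about 1 in 20. EGR1 had 72.4 CPM (598 counts) in library 1 of sgControl day 6 replicate 1, against 13.3 to 30.1 CPM in the other 5 libraries. EGR3 had 13.1 CPM (108 counts) in the same library, against 1.73 to 4.93 CPM. The same library held 12.1 CPM of FOS and 24.7 CPM of IER2, against 6.98 and 16.03 CPM in library 2 of that RNA, whereas JUN was lower in it, at 1.45 against 6.03 CPM. FOSL1 had 4.75 CPM (57 counts) in library 1 of sgControl day 5 replicate 3, against 0 to 1.11 CPM in the others, and that library holds 57 of the 58 FOSL1 counts of its RNA sample. JUNB had 1.65 CPM (20 counts) in library 1 of sgRELA day 7 replicate 2, against 4.70 to 6.42 CPM. JUND had 2.01 CPM (18 counts) in library 2 of sgRELA day 6 replicate 3, against 0.641 to 1.08 CPM.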

How the results depend on the processing

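Of 1490 log2 fold changes of members recomputed under the alternatives, 1348 kept their direction and their side of the threshold, 54 lost a call, 21 gained one, 67 that were called in neither fit differed in sign, and no called value reversed. Of 21 calls, 5 were kept in every alternative: JUN against day 5 (4 calls) and EGR3 from day 5 to day 7 in sgRELA. Adjusted p-values are from edgeR unless DESeq2 is named.

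The number of members called moved most with the first library alone. It went from 2 to 0 between the guides on day 6, from 2 to 1 (day 5 to 6), 4 to 1 (day 5 to 7) and 3 to 0 (day 6 to 7) in sgControl, from 4 to 1 (day 5 to 6) and 3 to 0 (day 6 to 7) in sgRELA, and from 1 to 0 for the mean of the 3 days. With the second library alone it went from 4 to 2 from day 5 to day 7 in sgControl, and 6 calls were lost: EGR2 and IER2 in that comparison, EGR2 from day 6 to day 7 in sgControl, EGR3 from day 5 to day 6 and FOSB from day 6 to day 7 in sgRELA, and FOS for the mean of the 3 days, where EGR1 was gained. For the mean of the 3 days, 2 members were called by DESeq2, 3 without a filter, 3 without the 2 libraries with few detected genes and 2 with the replicate block. For the interaction, 1 was called by DESeq2, 2 without a filter and 1 without the 2 libraries.

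Leaving out 1 RNA sample gave 1 to 3 members between the guides on day 6, 1 to 3 from day 5 to day 6 in sgControl, 2 to 3 from day 5 to day 6 in sgRELA, 1 to 3 from day 6 to day 7 in sgRELA, 0 to 2 for the mean of the 3 days and 0 to 1 for the interaction. The cause of these shifts was not tested. Over all genes, the number of calls moved by over 1.5 times in 11 of 11 comparisons with the first library alone, in 8 with the second, in 6 with DESeq2 and in 4 without a filter.

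Replicate numbers did not mark shared deviations: over 9 comparisons, 27 correlations of same-numbered samples lay between -0.143 and 0.075 across 15514 genes. The replicate block brought EGR1 between the guides on day 6 under the threshold (log2 fold change 1.01, adjusted p = 0.0173), and FOSB for the mean of the 3 days. With a block within each guide, the rise of FOS from day 5 to day 6 in sgRELA was 0.99 (adjusted p = 0.0539) and that of EGR3 in sgControl 1.31 (adjusted p = 0.0495). FOSL1 rested on 4 to 58 counts per RNA sample, EGR2 on 9 to 90 and JUND on 16 to 69, which limits the precision of their levels.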

Other observations

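The 2 libraries of one RNA sample differed by a median factor of 1.13 for IER2, 1.16 for EGR1 and 1.24 for JUN over 18 pairs, and by 1.48 for FOS, 1.57 for FOSB, 1.86 for EGR3 and 2.08 for EGR2, computed with 0.5 CPM added. The most abundant of these genes per length, EGR1 and IER2, had the smallest factors.

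Of the 11 T lymphocyte markers, 4 rose and 1 fell from day 5 to day 7 in sgControl, and 4 rose and 0 fell in sgRELA. Among all genes, 6.65% were called higher and 6.36% lower in sgControl, and 6.35% and 6.06% in sgRELA. The markers had median log2 fold changes of 0.14 and 0.12. The gene that fell was CD247, the zeta chain of the T cell receptor complex, with -0.34 ± 0.11 in sgControl (adjusted p = 0.0379), and its value in sgRELA was -0.23 ± 0.11 (adjusted p = 0.202, edgeR). CD3G rose from 297.1 to 526.1 CPM in sgControl (log2 fold change 0.82 ± 0.08, adjusted p = 5.38e-09) and from 306.4 to 561.3 CPM in sgRELA (0.87 ± 0.08, adjusted p = 1.62e-09, edgeR). LCK, the kinase that starts T cell receptor signalling, rose by 0.47 ± 0.09 and 0.58 ± 0.09 over the same days (adjusted p = 0.000265 and 1.56e-05, edgeR). CD28, a costimulatory receptor, was higher in sgRELA than in sgControl on day 6 by 0.60 ± 0.11 (adjusted p = 0.00657, edgeR). It was the 1 marker of the 11 called between the guides on that day, against 0.152% of all genes called higher. On days 5 and 7, 0 of the 11 were called between the guides.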
